A study of Mus musculus with 12 samples.

Results

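The metaphysis of the femur, the flared end of the bone beside the growth plate, was compared between mice with a conditional deletion of Dlx3 and wild-type mice. The comparison used 6 of the 12 libraries of the series: 3 labelled wild type (WT) and 3 labelled Dlx3Oc-cKO (cKO from here on). All 6 came from males of 5 weeks on a mixed background, and no treatment is named. The other 6 libraries hold the shaft (diaphysis) of femurs of the same 2 genotypes, age and sex. RNA was sequenced, and the deposited values are RPKM, reads scaled by transcript length and sequencing depth. Transcripts were summed per gene symbol, and the 12641 of 18778 symbols with an RPKM of 1 or more in 3 of the 6 libraries were tested. Library titles carry OC, those of the metaphysis also GP, and the labels spell out neither. In the mouse line known as Dlx3Oc-cKO the Cre recombinase is driven by the osteocalcin promoter, which is active in mature osteoblasts and osteocytes. The deletion is thus aimed at those cells and not at the other cells of the sample. The labels do not say that each library of a group is 1 animal, and p-values measure the spread between libraries, which may be technical.

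Dlx3 belongs to the Distal-less family of homeobox transcription factors, which bind DNA motifs with a TAATT core and act in the skeleton, skin and teeth. In bone, osteoblasts secrete and mineralise the matrix, osteocytes sit within it, and osteoclasts resorb it. The metaphysis also holds cartilage of the growth plate, blood vessels and red marrow, where blood cells divide and mature. A bulk library sums over all of these cells, so fewer cells of a type and less RNA per cell cannot be told apart in any value below. RPKM are also scaled to the depth of the library, so a larger share of bone or cartilage RNA lowers the values of marrow genes. The rises and falls below may thus not be separate from each other, which was not tested.

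Of the 12641 genes, 1441 (11.4%) passed an adjusted p of 0.05 in limma's moderated test on log2(RPKM + 0.1). Of these, 949 (7.51%) were higher and 492 (3.89%) lower in cKO. The median called rise was 1.6-fold, and genes called lower stood at a median of 64.7% of WT. Only 169 of the rises and 35 of the falls reached 2-fold, and 9 rises and 1 fall reached 4-fold. In every called gene the 3 cKO values lay outside the range of the 3 WT values, as was so for 37.1% of all tested genes (18.7% higher, 18.4% lower). The median difference over all genes was -0.04 on the log2 scale. The level filter let 51 genes in through the 3 cKO libraries alone, of which 21 were called, and 20 through the 3 WT libraries alone, of which 5 were called; Dlx4, Trpa1, Slc18a1, Kcnt2 and Serpina3h, named below, are among the 51 and Cd300ld among the 20, so the filter favoured a difference in them. The 229 genes with exactly 3 libraries at 1 RPKM or more had mean levels of 0.717 to 3.7 RPKM, and the 238 left out with 2 such libraries 0.474 to 2.49 RPKM. By mean level, 3.41% were higher and 0.664% lower at 1 to 2 RPKM, against 11.3% and 8.06% at 50 to 100 RPKM. The 84 tested genes with a mean under 1 RPKM had 5.95% higher and 3.57% lower, and genes of 100 RPKM or more 8.46% and 6.29%. By chromosome, the called share ran from 7.01% on X to 14.7% on chromosome 6.

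**Figure D1:**
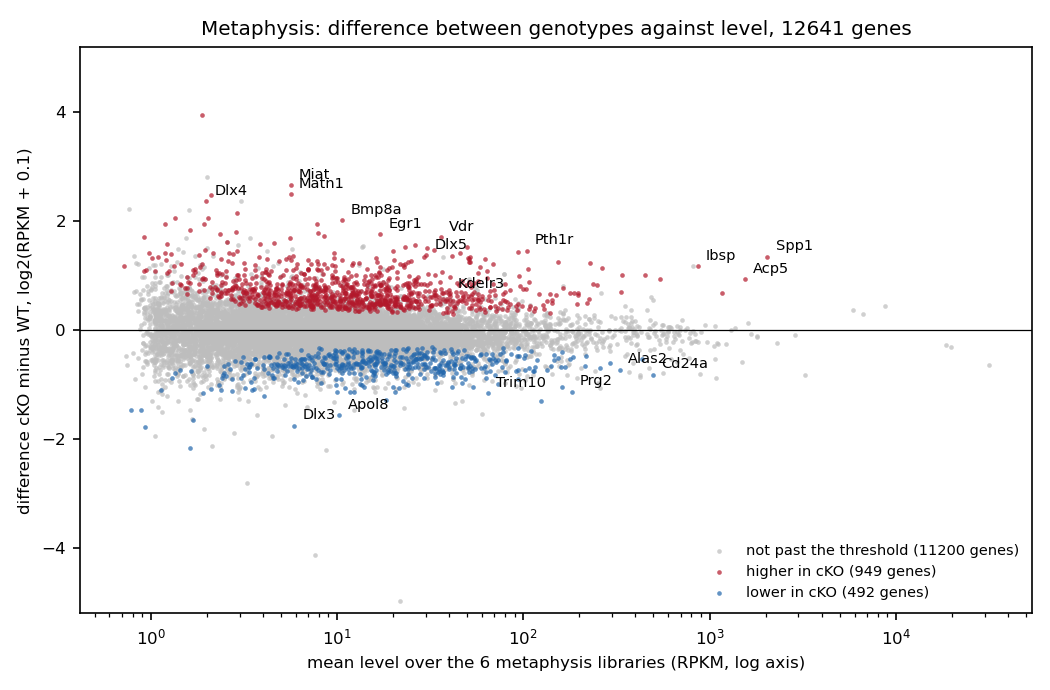
Each point is 1 of the 12641 genes, with its mean RPKM over the 6 metaphysis libraries on a log axis and its difference between genotypes on the log2(RPKM + 0.1) scale. Red points (949 genes) were higher and blue points (492 genes) lower in cKO at an adjusted p of 0.05; the highest expressed called genes, Spp1 and Acp5, were both higher.

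The count of calls rests on few libraries. Replicate numbers here and below were assigned in the order of the samples, since the labels give none. Leaving out WT replicate 1 gave 160 higher and 20 lower, WT replicate 2 gave 211 and 29, WT replicate 3 gave 575 and 90, and cKO replicate 3 gave 131 and 32. With the spread shared over all 12 libraries of the series, 5 genes were higher and 2 lower. The 5 were 1200009I06Rik, Dlx4, Gfra1, Ppp1r3b and Serpina3h, and the 2 were Apol8 and Cd300ld. In that fit 1 serpin, 1 Distal-less gene and 1 CD300 receptor were called, and 0 members of every other gene group or marker list counted here. Over the 6 fits that each leave out 1 metaphysis library, 102 of the rises and 10 of the falls passed every time, and no called gene changed sign.

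Depth, worked out from the spacing of low values, was 24.4 to 34.3 M reads per metaphysis library, at which 10 reads on a transcript of 2 kb give 0.146 to 0.205 RPKM. The globin share of all RPKM ran from 19% to 22.1% in WT and from 13.5% to 17.2% in cKO. The first principal component (43.8% of the variance) separated the genotypes, and cKO replicate 2 stood apart on the second (24.9%). Bone markers were present in all libraries. Summed over each marker list, RPKM was 20039 to 25096 in WT against 29552 to 32339 in cKO for osteoblasts, 2869 to 3456 against 4638 to 5197 for osteoclasts, and 906 to 1183 against 1596 to 2592 for chondrocytes. It was 199 to 205 against 279 to 291 for vessel lining, 46977 to 53286 against 34834 to 45075 for red cell precursors and 551 to 674 against 352 to 425 for B cells. These 6 sums did not overlap between genotypes. Nor did those of osteocytes, higher in cKO, and of megakaryocytes, the mast cell, basophil and eosinophil list and blood progenitors, lower in cKO. The eosinophil gene Prg2 makes up most of the mast cell, basophil and eosinophil sum in every library. The sums of the remaining cell type lists overlapped. Skeletal muscle markers summed to 8208 to 12305 in WT and 3608 to 13914 in cKO, highest in cKO replicate 2.

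**Figure D2:**
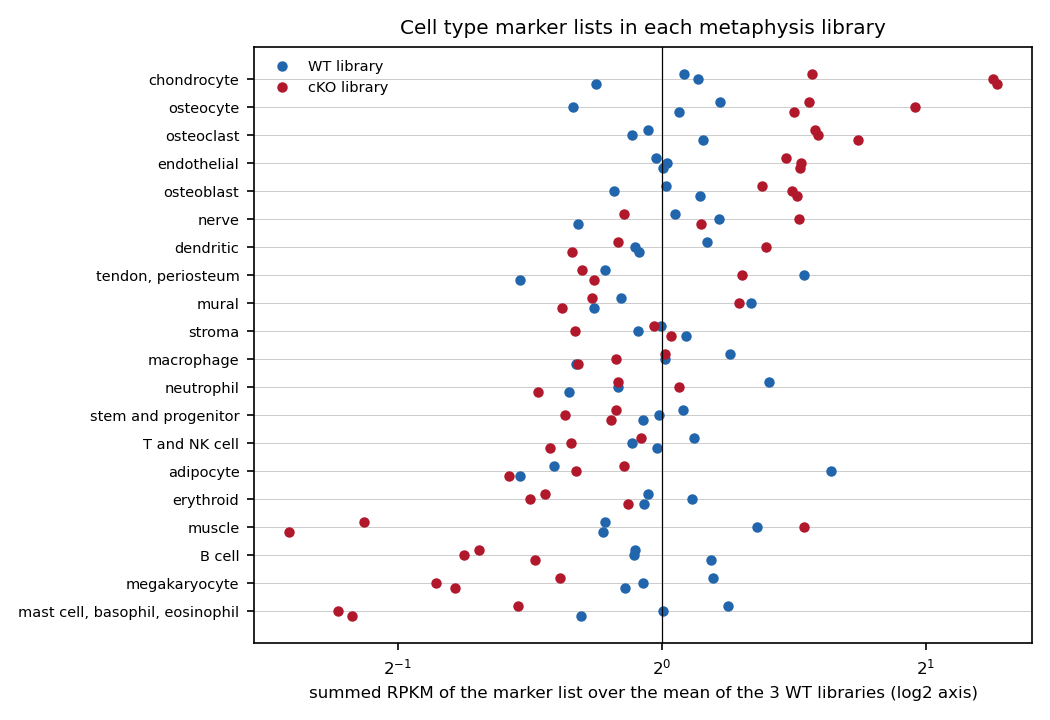
Summed RPKM of each cell type marker list in each metaphysis library, divided by the mean of the 3 WT libraries, on a log2 axis; blue points are WT and red points cKO. Bone, cartilage and vessel lists lie to the right in cKO, B cell, platelet and eosinophil lists to the left, and muscle spreads widely within cKO.

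The deleted gene fell and 3 relatives rose. Dlx3 (chromosome 11, 94981403 to 94986610 in the mm9 build, GENCODE vM1 gene bounds, as for all positions given by chromosome below) measured 8.37, 8.9 and 10.1 RPKM in WT replicates 1, 2 and 3 and 1.98, 2.8 and 3.24 RPKM in cKO replicates 1, 2 and 3, the order used for every gene below. It remained detectable in each cKO library, with a ratio of mean RPKM of 0.294, and its log2 difference was -1.75 ± 0.18 (SE, limma, adjusted p = 0.00907). By exact permutation of the 6 libraries its two-sided p was 0.1, which is the smallest this design can give. Dlx4, which lies beside Dlx3 (chromosome 11, 95001770 to 95007577), measured 0.644, 0.506 and 0.579 RPKM in WT and 3.21, 3.11 and 3.91 RPKM in cKO. Dlx5, a regulator of osteoblast genes (chromosome 6, 6827805 to 6832085), measured 14.4, 16 and 19.2 RPKM in WT and 33.2, 48.3 and 49.3 RPKM in cKO. Dlx6, its neighbour (chromosome 6, 6813334 to 6818568), measured 1.12, 2.34 and 2.38 RPKM in WT and 5.46, 5.7 and 6.14 RPKM in cKO. None of the 4 overlapped between genotypes, and the rises were 2.37 ± 0.19, 1.38 ± 0.18 and 1.59 ± 0.27 on the log2 scale (SE, adjusted p = 0.00462, 0.0115 and 0.0178). Dlx6 did not pass without cKO replicate 3. Of the 51 tested genes within 2 Mb of Dlx3, 19.6% were called, and of the 239 within 10 Mb 15.1%, against 11.4% overall. Both shares count Dlx3 and Dlx4 themselves, which are part of the 8 higher and 2 lower within 2 Mb and of the 24 and 12 within 10 Mb. Whether the other neighbours are called more often than genes elsewhere was not tested.

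To show the DNA in front of genes the comparison turns on, upstream sequence was taken from RefSeq (GRCm38.p6) for the genes with the largest changes, where the table gave 1 start per gene. This held for 11 of 17 named genes that rose and 9 of 16 that fell. The homeobox core TAATT, on either strand, was found in the 250 bases before the start of 1 of the 11 and 2 of the 9. The 1 that rose was Ibsp, and the 2 that fell were Myh1, with 4 copies, and Ear1. Among all genes with 1 start it was in 10% of 489 called higher, 11.3% of 275 called lower and 14.4% of 7106 tested. The motif AGATAA, bound by GATA factors of blood cells, was in 4.7%, 6.55% and 5.52% of the same sets. It was in 1 of the 11, Bmp8a, and in 2 of the 9, Alas2 and Trim10. The 3 sequences below are 5′ to 3′ on the gene's own strand. Capitals mark the motif, which in all 3 reads on the other strand. The 3 were picked by hand, and Myh1, Ear1 and Bmp8a, which also hold a motif, are not printed. Ibsp, the mineral-binding matrix protein bone sialoprotein, rose and holds the homeobox core (chr5:104299037-104299286, plus strand). Alas2 (chrX:150547167-150547416, plus strand) and Trim10 (chr17:36869324-36869573, plus strand), genes of red cell precursors, fell and hold AGATAA.
Ibsp: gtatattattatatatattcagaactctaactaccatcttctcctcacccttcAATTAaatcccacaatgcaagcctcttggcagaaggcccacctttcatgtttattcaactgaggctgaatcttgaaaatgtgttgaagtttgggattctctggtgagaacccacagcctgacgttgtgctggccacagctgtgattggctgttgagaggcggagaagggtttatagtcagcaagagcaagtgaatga
Alas2: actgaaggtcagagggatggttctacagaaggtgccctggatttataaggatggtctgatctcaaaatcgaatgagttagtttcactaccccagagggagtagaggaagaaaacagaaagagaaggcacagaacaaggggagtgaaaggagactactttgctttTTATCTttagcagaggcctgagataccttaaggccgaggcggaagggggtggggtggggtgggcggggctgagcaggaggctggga
Trim10: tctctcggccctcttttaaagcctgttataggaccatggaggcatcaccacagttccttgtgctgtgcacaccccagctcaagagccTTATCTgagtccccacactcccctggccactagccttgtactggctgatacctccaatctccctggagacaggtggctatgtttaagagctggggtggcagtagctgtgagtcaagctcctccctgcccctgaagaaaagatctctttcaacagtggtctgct

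The largest rises among called genes of 5 RPKM or more were led by the long noncoding RNA Miat (chromosome 5, 112642248 to 112657968). It measured 1.18, 1.79 and 1.46 RPKM in WT and 11.3, 8.59 and 9.57 RPKM in cKO. The 6.66-fold rise in mean RPKM corresponded to 2.67 ± 0.18 on the log2 scale (SE, adjusted p = 0.00369). Matn1, a matrilin of cartilage matrix, measured 1.64, 1.16 and 2.16 RPKM in WT and 9.19, 8.8 and 10.9 RPKM in cKO. Tmie (chromosome 9, 110768215 to 110782617), a membrane protein known from the mechanotransduction complex of inner ear hair cells, gave closely grouped values, namely 3.72, 4.05 and 3.87 RPKM in WT libraries and 14.7, 12.4 and 12.3 RPKM in cKO. All 3 genes stood far outside the WT range in each cKO library. A pair of secreted BMP family members rose: Bmp8a from 4.31 ± 1.51 to 17 ± 2.35 RPKM (SD, n = 3) and Bmp3, an inhibitory member made by osteoblasts, from 11.9 ± 1.34 to 34.4 ± 2.66. Wnt10b, a Wnt ligand that favours bone formation, measured 4.07, 2.75 and 3.85 RPKM in WT and 11.6, 13.3 and 12.1 RPKM in cKO. Vdr, the vitamin D receptor (chromosome 15, 97684856 to 97741061), measured 20, 13.3 and 17.1 RPKM in WT and 51.1, 70 and 45.3 RPKM in cKO, 1.71 ± 0.20 on the log2 scale (SE, adjusted p = 0.0101). Fam20c, the kinase that phosphorylates secreted matrix proteins, rose 3.01-fold and Ltbp2, a matrix protein of the latent TGF-beta binding family, 4.09-fold. The transcription factors Egr1 and Foxs1 and the membrane-anchored semaphorin Sema7a complete the 12, at 3.47, 3.41 and 2.86-fold. Of the 12, Foxs1 alone did not pass in every fit that left out 1 library, with adjusted p up to 0.0569.

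Among called genes, the largest gains in RPKM were in matrix and resorption genes. Spp1, the phosphoprotein osteopontin made by osteoblasts and osteoclasts, measured 1087, 1176 and 1153 RPKM in WT and 2354, 3688 and 2811 RPKM in cKO. Ibsp measured 491, 421 and 703 RPKM in WT and 1211, 1178 and 1175 RPKM in cKO, and the means were 538 ± 146 and 1188 ± 19.9 RPKM (SD, n = 3). Acp5, the tartrate-resistant phosphatase of osteoclasts, measured 1024, 934 and 1223 RPKM in WT and 1780.4, 2095 and 2202 RPKM in cKO. The collagen-degrading protease Ctsk rose 1.61-fold and the gelatinase Mmp9 1.88-fold, both made in bulk by osteoclasts. The 5 log2 differences ran from 0.69 (Ctsk) to 1.35 (Spp1), with adjusted p from 0.0112 to 0.0238. Spp1 passed with each library left out in turn, and the other 4 did not, with adjusted p up to 0.0781.

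**Figure D3:**
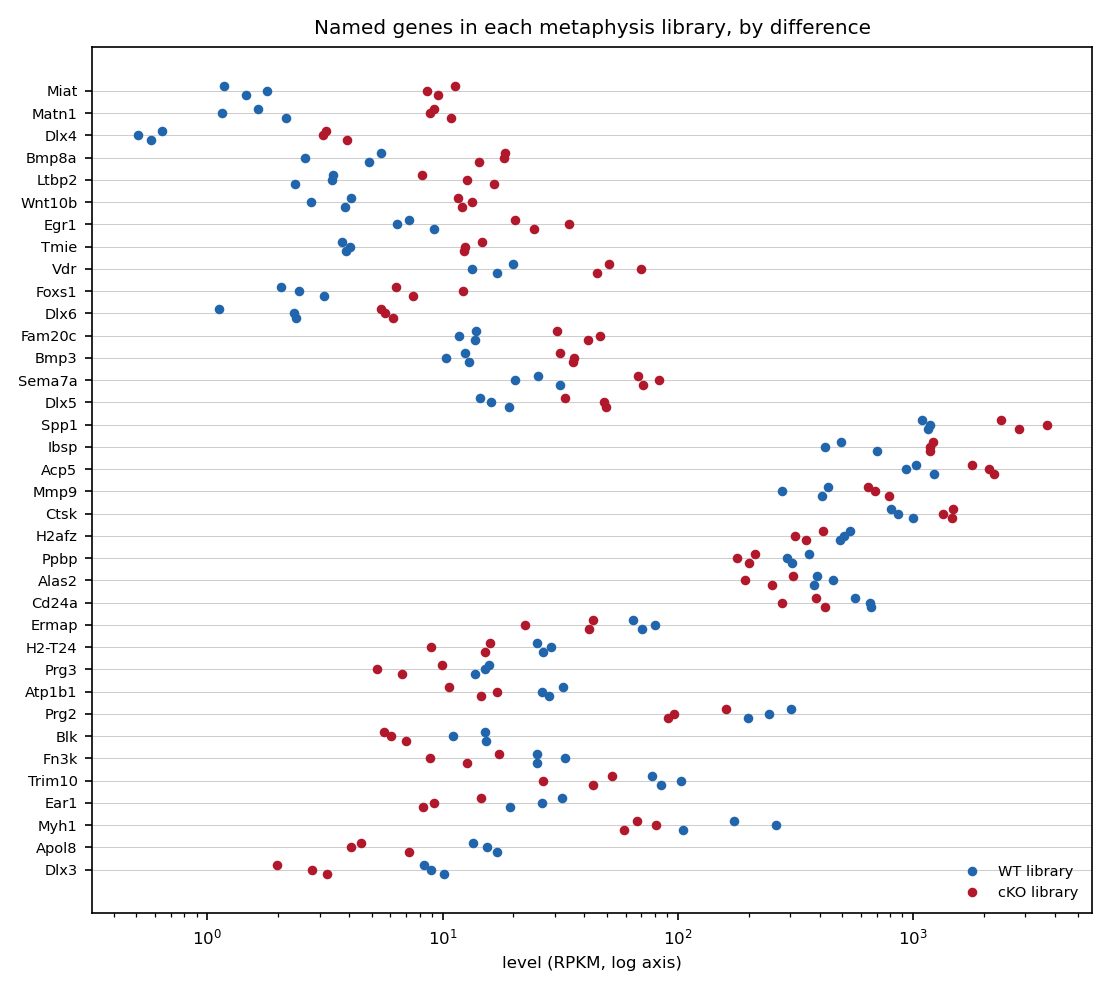
RPKM on a log axis of the genes named by size of change, 1 row per gene ordered by log2 difference; blue points are the 3 WT and red points the 3 cKO libraries. The Distal-less relatives are included. Red lies to the right of blue without overlap from Miat down to Ctsk, and to the left from H2afz down to Dlx3.

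Some ligands that signal between cells rose. Of 34 tested growth factor ligands outside the Wnt, BMP and TGF-beta families, 12 were higher (35.3%, against 7.51% of all genes) and 0 lower, with a median log2 difference of 0.35. The members and gene lists, here and in the other paragraphs, were chosen with earlier results of these data known. Their shares beside those of all genes describe the data and are no independent test. Pdgfa, a ligand of the PDGF receptors, measured 14.5, 14.1 and 18.9 RPKM in WT and 38.8, 50 and 46.7 RPKM in cKO, 1.51 ± 0.15 on the log2 scale (SE, adjusted p = 0.00773). Pgf, a placental growth factor of the VEGF family, measured 7.53, 5.03 and 4.84 RPKM in WT and 13.1, 13 and 13.2 RPKM in cKO, where the 3 values were nearly equal. Angpt4 and Angpt2, ligands of the vessel receptor Tie2, rose by 1.10 and 1.09. Gas6, a ligand of the TAM receptors, and Vegfb, of the VEGF family, differed by 0.18 and -0.34 and did not pass (adjusted p = 0.202 and 0.261). The count of ligands higher was 7, 7, 2, 4 and 3 without cKO replicates 1, 2 and 3 and WT replicates 1 and 2 in turn, and 1 was lower without cKO replicate 1. Of 28 receptor tyrosine kinases 13 were higher (46.4%) and 0 lower, with a median of 0.42. Ptk7, a kinase-dead Wnt coreceptor, measured 6.61, 6.3 and 7.33 RPKM in WT and 13.8, 12 and 13.9 RPKM in cKO. Fgfr1, a receptor of fibroblast growth factors, rose from 38.6 ± 4.15 to 68.3 ± 5.94 RPKM (SD, n = 3), Pdgfrb by 0.80 and Egfr by 0.73. Ddr2, the collagen receptor, Axl and Insr differed by 0.19, -0.21 and -0.10 without passing. The kinase count was 7, 8, 1, 1, 3 and 8 without cKO replicates 1, 2 and 3 and WT replicates 1, 2 and 3 in turn. Pdgfa and Ptk7 passed with each library left out, and the other called genes named here did not, with adjusted p up to 0.121. Receptors of mural cells and vessel lining are among these lists (Pdgfrb, Kdr, Tie1, Flt1), and the vessel marker sum was 279 to 291 RPKM in cKO against 199 to 205 in WT. Its part in the result was not tested.

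Hormone receptors were called in both directions. Among 39 hormone and neurotransmitter receptors with their partners, 10 were higher (25.6%, against 7.51% of all genes) and 2 lower (5.13%, against 3.89% of all genes; median 0.30). Pth1r, the parathyroid hormone receptor through which that hormone acts on osteoblasts and chondrocytes, measured 50.7, 51.3 and 64.8 RPKM in WT and 134, 162 and 163 RPKM in cKO. Its difference was 1.46 ± 0.13 (SE, adjusted p = 0.00554). Ramp3, a partner of the calcitonin family receptors, measured 2.22, 2.29 and 2.62 RPKM in WT and 4.89, 6.99 and 6.35 RPKM in cKO. S1pr3, a receptor of the blood lipid sphingosine 1-phosphate, and the endothelin receptor Ednrb rose by 0.77 and 0.76. Among those that fell was the platelet nucleotide receptor P2ry1 (-0.54), named after its value was seen. Counts of receptors higher were 2, 3, 4 and 6 without cKO replicate 3 and WT replicates 1, 2 and 3 in turn, and of those lower 1, 0, 0, 0 and 0 without cKO replicates 2 and 3 and WT replicates 1, 2 and 3 in turn. The leptin receptor Lepr differed by 0.61 and missed the threshold (adjusted p = 0.0634). Of 22 nuclear receptors, 4 were higher (18.2%) and 0 lower: Vdr, the orphan receptor Nr2f6 (1.00), the retinoic acid receptor Rarg (0.61) and Ppard (0.46). The glucocorticoid receptor Nr3c1 differed by -0.14 (adjusted p = 0.374). Nuclear receptors numbered 2, 1, 2, 2 and 2 without cKO replicates 2 and 3 and WT replicates 1, 2 and 3 in turn. Vdr, Pth1r and Ramp3 passed with each library left out, and the other called receptors named here did not, with adjusted p up to 0.109.

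Transcripts of a few enzymes and carriers of lipid signals rose; the lipids themselves were not measured. Ptgis, the synthase that makes prostacyclin, measured 53, 47.7 and 51.8 RPKM in WT and 127, 153 and 133 RPKM in cKO, a difference of 1.43 ± 0.10 (SE, adjusted p = 0.00369) that passed with each library left out. The prostaglandin transporter Slco2a1 (0.88), the leukotriene C4 synthase Ltc4s (0.78) and the prostaglandin-degrading enzyme Hpgd (0.62) also rose, 4 of 17 genes (23.5%, against 7.51% of all genes) with 0 lower, although the median of the 17 was -0.16. Alox5ap and Lta4h, which act in leukotriene synthesis, differed by -0.16 and -0.25 and did not pass. For retinoic acid, 3 of 13 genes (23.1%) were higher: Cyp26b1, the enzyme that breaks it down, with 1.1, 1.31 and 1.05 RPKM in WT and 3.66, 5.86 and 2.38 RPKM in cKO, the retinol carrier Rbp4 with a rise of 1.07, and Rarg. The cKO values of Cyp26b1 spread widely and still lay above the WT range. The count of prostaglandin genes higher was 2, 1, 1 and 2 without cKO replicate 3 and WT replicates 1, 2 and 3 in turn, 3 were lower without cKO replicate 1 and 2 with scaling to equal medians or a filter of 5 RPKM, and the retinoid count 1, 1 and 1 without WT replicates 1, 2 and 3 in turn. Rbp4 passed with each library left out, and Slco2a1, Ltc4s, Hpgd, Cyp26b1 and Rarg did not, with adjusted p up to 0.136.

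Among guidance cues and their receptors, 7 of 23 outside the semaphorins were higher (30.4%, against 7.51% of all genes) and 0 lower, and all 23 had a difference above 0 (median 0.52). These molecules steer axons in the embryo and also act on vessels and bone cells. Slit3, a secreted cue, measured 10, 8.77 and 11.6 RPKM in WT and 21.9, 18.6 and 21.2 RPKM in cKO, 1.02 ± 0.13 on the log2 scale (SE, adjusted p = 0.0108). Its relative Slit2, the netrin receptor Unc5b and neogenin (Neo1) rose by 0.98, 1.07 and 0.82. The ephrin receptor Epha2 and the vessel receptor Robo4 differed by 0.53 and 0.43 and did not pass (adjusted p = 0.083 and 0.0911). Of 27 semaphorins, plexins and neuropilins, 7 were higher (25.9%) and 0 lower, led by Sema7a, with 25.4, 20.4 and 31.7 RPKM in WT and 67.4, 82.9 and 71.1 RPKM in cKO. Plxnb1, Sema3b and Sema3f followed at 1.00, 0.78 and 0.73, and the abundant Nrp2 and Sema4d differed by 0.57 and 0.35 without passing. The guidance count was 2, 2 and 3 without cKO replicate 3 and WT replicates 1 and 2 in turn, and the semaphorin count 1, 1 and 2 without cKO replicate 3 and WT replicates 1 and 2 in turn. With each library left out, Slit3, Neo1 and Sema7a kept an adjusted p under the threshold, and the other called genes named here did not (up to 0.0961).

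Cadherins, which join cells to each other, were called higher in 9 of 16 tested members (56.2%, against 7.51% of all genes) and lower in 0 (median 0.69). Cdh11, the osteoblast cadherin, measured 37.8, 34.6 and 43.4 RPKM in WT and 70.9, 66.8 and 72.5 RPKM in cKO. Cdh15, known as M-cadherin, measured 9.37, 7.17 and 11 RPKM in WT and 18.5, 19.7 and 21.4 RPKM in cKO. The clustered protocadherins Pcdhgc3 and Pcdhgc5 rose by 0.85 and 1.19, and Pcdh7 and Cdh13 differed by 0.39 and -0.27 without passing. Integrins, which join cells to matrix, were higher in 6 of 27 (22.2%) and lower in 0, with 12 of 27 above 0 and a median of -0.07. The collagen receptors Itga10 and Itga11 rose by 0.87 and 1.08. Itgb5, a partner of the vitronectin receptor, measured 17.7, 20 and 17.2 RPKM in WT and 32.6, 37.2 and 31.9 RPKM in cKO, and Itgax, a chain of myeloid cells, rose by 0.66. The most abundant chains, Itgb1, Itgb3 of osteoclasts and platelets, and Itgb2 of white cells, differed by 0.18, -0.01 and -0.18 (adjusted p = 0.153, 0.989 and 0.53). The cadherin count was 2, 2 and 3 without cKO replicate 3 and WT replicates 1 and 2 in turn, and the count of integrins higher 2, 3 and 3 without cKO replicate 3 and WT replicates 1 and 2 in turn, with 2 integrins lower without cKO replicate 1. Cdh11, Pcdhgc3, Itga10 and Itgb5 passed with each library left out, and Cdh15, Pcdhgc5, Itga11 and Itgax did not, with adjusted p up to 0.12.

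Some genes of transport between the endoplasmic reticulum and the Golgi rose by small amounts. Coat proteins bud and carry vesicles there, and cargo receptors return escaped resident proteins. Of 39 such genes, 11 were higher (28.2%, against 7.51% of all genes), 28 did not pass and 0 were lower. A difference above 0 was found in 36, and 32 did not overlap between genotypes, all with cKO higher (18.7% of all genes), at a median of 0.24. Sec31a, of the outer COPII coat, measured 37.7, 33.9 and 40.8 RPKM in WT and 59.8, 59.9 and 61 RPKM in cKO. Kdelr3, a receptor that retrieves resident proteins, measured 30.9, 30.4 and 31.7 RPKM in WT and 48.9, 49 and 49.3 RPKM in cKO, a difference of 0.66 ± 0.07 (SE, adjusted p = 0.00907). The libraries of each genotype lay close together for Kdelr3. Sec24d, the COPII subunit that loads procollagen, and Copz2, of the COPI coat, rose by 0.59 and 0.57. The most abundant members, Arf1, Tmed2 and Tmed9, differed by 0.19, 0.03 and 0.16 and did not pass. Of 33 chaperones and stress genes of the reticulum 4 were higher (12.1%) and 0 lower, and the median was 0.01. Creb3l1, the transcription factor that drives secretion in osteoblasts, rose by 1.15, Pdia5 by 0.63, Creb3l2 by 0.61 and the prolyl hydroxylase subunit P4hb by 0.51, while Calr, Hsp90b1 and Hspa5 differed by 0.22, 0.02 and 0.14. Of 26 genes for protein entry into the reticulum 2 were higher (7.69%, against 7.51% of all genes). The coat count was 1, 2, 2 and 7 without cKO replicate 3 and WT replicates 1, 2 and 3 in turn, and that of chaperones and stress genes 2, 0, 0 and 1 without cKO replicates 1 and 3 and WT replicates 1 and 2 in turn. Protein entry genes numbered 1, 0, 0, 0 and 0 without cKO replicates 1 and 3 and WT replicates 1, 2 and 3 in turn, and 1 was lower without cKO replicate 1. Kdelr3 passed with each library left out, and the other called genes named here did not, with adjusted p up to 0.0975.

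Of 30 lysosomal genes 9 were higher (30%, against 7.51% of all genes), 21 did not pass and 0 were lower, and 27 were above 0 (median 0.28). Lysosomes digest cell contents, and osteoclasts release them to resorb bone. Hexa, a hexosaminidase subunit, measured 144, 132 and 157 RPKM in WT and 226, 244 and 223 RPKM in cKO. The heparan sulfate enzyme Naglu and the protective protein Ctsa rose by 0.64 and 0.59 (adjusted p = 0.0147 and 0.0125). The most abundant, Cd63, Psap and Ctsd, differed by 0.37, 0.12 and 0.15 and did not pass. The count was 0, 0 and 3 without cKO replicate 3 and WT replicates 1 and 2 in turn, and the 3 called genes named here each lost the call in at least 1 such fit, with adjusted p up to 0.0613. The summed osteoclast markers stood at 4638 to 5197 RPKM in cKO and 2869 to 3456 in WT, and their part in the lysosomal values was not tested.

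Some enzymes that build and cut the matrix rose. Of 40 genes for synthesis and sulfation of glycosaminoglycan chains, the sugar chains of proteoglycans, 10 were higher (25%, against 7.51% of all genes) and 2 lower (5%, against 3.89% of all genes; median 0.30). Papss2, which makes the sulfate donor of cartilage, measured 9.36, 10.4 and 8.21 RPKM in WT and 14.1, 20.9 and 21.4 RPKM in cKO. The sulfotransferase Chst7 and the chain-polymerising factor Chpf rose by 0.74 and 0.72. Chst3, which sulfates chondroitin, went against them with 17.6, 15.9 and 17.3 RPKM in WT and 10.4, 8.57 and 10.1 RPKM in cKO, a difference of -0.81 ± 0.10 (SE, adjusted p = 0.0115) that passed with each library left out. The second fall, named after its value was seen, was the heparan sulfotransferase Hs6st1 (-0.52). Among 25 ADAM and ADAMTS proteases, which cut cell surface proteins and proteoglycans, 6 were higher (24%) and 0 lower. Adamts15 measured 0.994, 0.927 and 1.11 RPKM in WT and 3.15, 4.12 and 3.86 RPKM in cKO, a rise of 1.77 ± 0.17 (SE, adjusted p = 0.00705). Adamts18, Adamts4 and Adamts14 rose by 1.81, 0.91 and 0.81, and the widely expressed Adam10 and Adam17 differed by 0.03 and -0.02. The count of glycosaminoglycan genes higher was 0, 0, 0 and 5 without cKO replicate 3 and WT replicates 1, 2 and 3 in turn, that of those lower was 1 with any library left out, and the protease count 1, 1 and 1 without cKO replicate 3 and WT replicates 1 and 2 in turn. Adamts15 kept the call throughout, and the other rises named here and Hs6st1 did not, with adjusted p up to 0.105.

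Ion channels and transporters gave a mixed picture. Of 14 channels of the TRP and Piezo families, which open to force, heat or chemicals, 5 were higher (35.7%, against 7.51% of all genes) and 0 lower. Trpa1 measured 0.255, 0.27 and 0.691 RPKM in WT and 1.39, 1.54 and 1.41 RPKM in cKO, and WT replicates 1 and 2 lay near the level that 10 reads give on a transcript of 2 kb. Trpv4, a mechanosensitive channel of cartilage and bone, measured 5.89, 6.42 and 5.52 RPKM in WT and 8.58, 9.33 and 11.6 RPKM in cKO. Trpm4 and Fam38a, the older symbol of the force-gated channel Piezo1, rose by 0.58 and 0.43, and the abundant Trpm7 and Pkd2 differed by -0.06 and 0.40 without passing. Potassium channels were called in both directions, 4 of 27 higher (14.8%) and 1 lower (3.7%, against 3.89% of all genes). Kcnh2, the channel known from the heart rhythm, rose from 2.86 ± 0.61 to 6.9 ± 0.405 RPKM (SD, n = 3), Kcne3 by 1.12 and Kcnt2 by 1.05. Kcnj5 was the fall, from 2.66 ± 0.229 to 1.19 ± 0.43 RPKM (SD, n = 3). Of 190 solute carriers 29 were higher (15.3%) and 9 lower (4.74%), with a median of 0.01. The largest difference among called carriers was a rise of Slc18a1, a vesicle amine transporter, from 0.406 ± 0.095 to 1.03 ± 0.0241 RPKM (SD, n = 3). The mitochondrial iron importer Slc25a37 and the red cell urea transporter Slc14a1 (-0.91) fell, and the zinc transporter Slc39a14 rose (0.92). TRP and Piezo counts were 2, 3, 0, 0, 0 and 1 without cKO replicates 1, 2 and 3 and WT replicates 1, 2 and 3 in turn, and those of solute carriers higher were 16, 19, 2, 3, 4 and 15 without cKO replicates 1, 2 and 3 and WT replicates 1, 2 and 3 in turn. Solute carriers lower numbered 0, 0, 0 and 0 without cKO replicate 3 and WT replicates 1, 2 and 3 in turn. Potassium channels higher numbered 0, 2 and 2 without cKO replicate 3 and WT replicates 1 and 2 in turn, and those lower 2, 5, 0, 0, 0 and 0 without cKO replicates 1, 2 and 3 and WT replicates 1, 2 and 3 in turn. None of the channels and carriers named here passed with every library left out, with adjusted p up to 0.133.

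Hox genes are transcription factors that set position along the body and limbs. Of 17 tested, 7 were higher (41.2%, against 7.51% of all genes) and 0 lower, and all 17 had a difference above 0 (median 0.56). Hoxb2 measured 5.51, 3.46 and 6.99 RPKM in WT and 11.5, 15.8 and 14.4 RPKM in cKO, and Hoxb3, Hoxb4 and Hoxa3 rose by 1.07, 1.05 and 0.79. The most abundant Hox gene, Hoxc10, differed by 0.41 (adjusted p = 0.268). The Hox count was 3, 0, 0, 1 and 3 without cKO replicates 2 and 3 and WT replicates 1, 2 and 3 in turn. Of 15 forkhead genes 3 were higher (20%), Foxs1, Foxc2 (1.31) and Foxc1, which measured 5.01, 4.05 and 6.16 RPKM in WT and 9.21, 14 and 12.8 RPKM in cKO, while the family median was -0.02. The widely expressed Foxo4, Foxo3 and Foxp1 differed by -0.25, -0.02 and -0.30 and did not pass. Among 23 other homeobox and patterning genes 5 were higher (21.7%) and 1 lower (4.35%). Irx5 and Meis3 rose by 1.23 and 1.22 and Tbx2 by 0.99. Pax5, the master factor of B cells, was the fall, with 10.5, 10 and 12.1 RPKM in WT and 5.91, 4.43 and 6.21 RPKM in cKO. Zinc finger genes named Zfp, the largest family, were called in 3.61% (higher) and 0.722% (lower) of 277, below the shares of all genes. Forkheads higher numbered 0, 0 and 0 without cKO replicate 3 and WT replicates 1 and 2 in turn, and 1 was lower without cKO replicate 1. Other homeobox genes higher numbered 3, 1, 1, 2 and 3 without cKO replicates 1 and 3 and WT replicates 1, 2 and 3 in turn, with 0 lower without WT replicate 1. Zfp genes higher numbered 4, 1, 1, 1 and 3 without cKO replicates 2 and 3 and WT replicates 1, 2 and 3 in turn, and those lower 0, 0, 0 and 0 without cKO replicate 3 and WT replicates 1, 2 and 3 in turn. Meis3 passed with each library left out, and the other called factors named here did not, with adjusted p up to 0.124.

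Egr1, Egr2 and Egr3 rose, immediate early factors that growth factors and also the handling of tissue induce. Egr1 measured 7.23, 6.39 and 9.2 RPKM in WT and 20.4, 34.3 and 24.4 RPKM in cKO, 1.76 ± 0.21 on the log2 scale (SE, adjusted p = 0.0101). Egr2 measured 0.521, 0.621 and 1.04 RPKM in WT and 2.27, 4.67 and 3.14 RPKM in cKO, and Egr3 3.82, 1.91 and 3.44 RPKM in WT and 5.21, 10.1 and 7.67 RPKM in cKO. All 3 were highest in cKO replicate 2, and no cKO value overlapped WT. Of the 19 genes listed as signs of handling time, 4 were higher (21.1%, against 7.51% of all genes; the Egr genes and Klf4, at 0.53) and 1 lower (5.26%). The lower one, Btg2, an inhibitor of division, measured 46.5, 54.6 and 46.7 RPKM in WT and 32, 29.2 and 29.2 RPKM in cKO. Fos and Jun, the best known members, differed by 0.79 and 0.31 and did not pass (adjusted p = 0.203 and 0.275). The part of handling in the Egr values was not tested. The count higher was 1, 2, 1 and 2 without cKO replicate 3 and WT replicates 1, 2 and 3 in turn, and the count lower 0 without cKO replicate 3. Egr1 passed with each library left out, and Egr2, Egr3, Klf4 and Btg2 did not, with adjusted p up to 0.107.

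**Figure D4:**
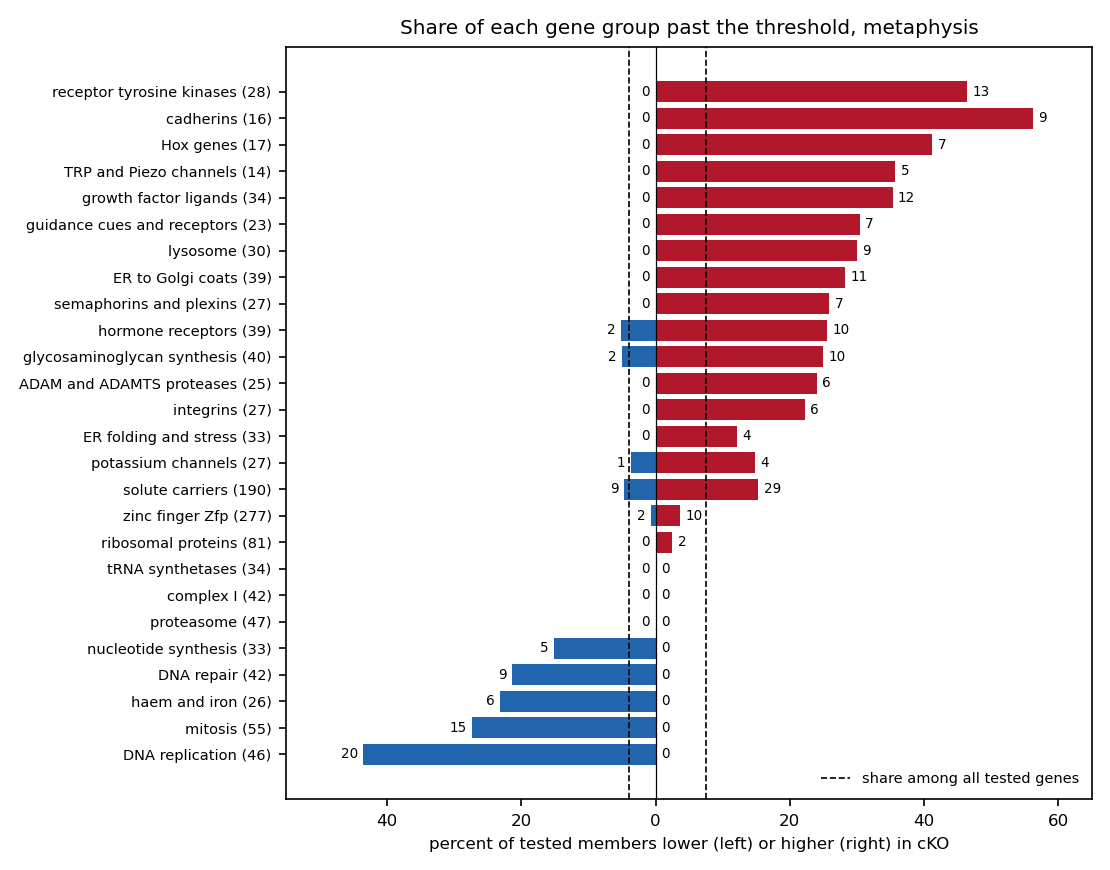
Percent of the tested members of each gene group past the threshold, higher in cKO to the right in red and lower to the left in blue, with the number of members at each bar and the number tested in brackets. Dashed lines mark the shares among all tested genes, 7.51% higher and 3.89% lower; of the groups drawn, the longest red bar is that of cadherins (9 of 16) and the longest blue bar that of DNA replication (20 of 46). The groups were chosen with earlier results of these data known.

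Among the largest falls were genes of blood cells, muscle and the apolipoprotein L family. Apol8 (chromosome 15, 77578229 to 77585678) fell most after Dlx3 among called genes of 5 RPKM or more. It measured 13.5, 15.5 and 17 RPKM in WT and 4.52, 4.1 and 7.18 RPKM in cKO. Its difference was -1.56 ± 0.21 (SE, adjusted p = 0.0117), and it passed with each library left out. Myh1, a fast myosin of skeletal muscle, measured 173, 262 and 105 RPKM in WT and 66.7, 80.7 and 59.1 RPKM in cKO. Of 18 muscle markers it was the 1 called lower (5.56%, against 3.89% of all genes) and 0 were higher, but the number lower was 0, 15, 0, 0, 0 and 2 without cKO replicates 1, 2 and 3 and WT replicates 1, 2 and 3 in turn. The muscle sum was highest in cKO replicate 2, and the part of muscle in this value was not tested. Atp1b1, a subunit of the sodium pump, and H2-T24, a nonclassical class I gene that shares sequence with its relatives, fell (log2 -1.07 and -1.05). Blk, a kinase of B cells, measured 15.2, 11.1 and 15.3 RPKM in WT and 5.64, 6.02 and 7.01 RPKM in cKO. Among called genes, the largest loss in RPKM was that of Cd24a, a surface protein of developing blood cells. It went from 628 ± 56.3 to 361 ± 74.2 RPKM (SD, n = 3). The haem enzyme Alas2, the histone variant H2afz (-0.52), Prg2 and the platelet chemokine Ppbp (-0.69) followed. Myh1, Atp1b1, H2-T24, Blk, Cd24a, H2afz and Ppbp did not pass in every fit with 1 library left out, with adjusted p up to 0.11.

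Eosinophil genes were among the largest falls. Eosinophils are granulocytes that store toxic basic proteins and mature in the marrow. Prg2, the major basic protein of their granules (chromosome 2, 84820618 to 84823789), measured 303, 243 and 198 RPKM in WT and 159.6, 96.2 and 90.9 RPKM in cKO. Its relative Prg3 measured 15.8, 15.2 and 13.8 RPKM in WT and 9.99, 5.26 and 6.74 RPKM in cKO, and Ear1, an eosinophil ribonuclease with near-identical copies, 32.2, 26.5 and 19.3 RPKM in WT and 14.6, 9.17 and 8.25 RPKM in cKO. The 3 differences were -1.13 ± 0.24, -1.06 ± 0.22 and -1.29 ± 0.26 (SE, adjusted p = 0.0308, 0.0266 and 0.025), and within each genotype replicate 1 was the highest library. Epx, the eosinophil peroxidase, differed by -0.88 and did not pass (adjusted p = 0.0668). The mast cell and basophil genes of the same list, Prss34 and Mcpt8, differed by -0.57 and -0.41 and did not pass either. Of the 9 tested members of the list 2 were lower (22.2%, against 3.89% of all genes), and the number lower was 1, 0, 0, 0 and 1 without cKO replicates 2 and 3 and WT replicates 1, 2 and 3 in turn. Summed over the list, RPKM was 274 to 404 in WT and 145 to 232 in cKO. Prg2 makes up most of this sum in every library, so the sum is not separate from the fall of Prg2. Neutrophil markers, for comparison, were called in 0 of 18 by limma, against 11.4% of all genes in either direction. At an unadjusted p under 0.05 there was 1 of 18, against 3862 of all 12641 genes. Their sums were 9333 to 15796 RPKM in WT and 8592 to 12446 RPKM in cKO. Without cKO replicate 1, 1 neutrophil marker was lower. Each of the 3 called eosinophil genes lost the call without WT replicate 1, WT replicate 2 or cKO replicate 3, Prg2 also without cKO replicate 2 and Prg3 also without WT replicate 3, with adjusted p up to 0.0961.

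Several genes of red cell precursors fell in cKO, where the globin share ran from 13.5% to 17.2% against 19% to 22.1% in WT; its part in these falls was not tested. Trim10, which acts late in red cell maturation (chromosome 17, 37006519 to 37014770), measured 77.6, 103 and 85 RPKM in WT and 52.3, 26.8 and 43.5 RPKM in cKO. Fn3k, an enzyme that repairs glycated protein, and Ermap, a red cell membrane protein, fell (log2 -1.14 and -1.05). Of 26 genes of haem synthesis and iron handling, 6 were lower (23.1%, against 3.89% of all genes) and 0 higher (median -0.61). Slc25a37, mitoferrin, measured 185, 244 and 218 RPKM in WT and 147, 74.3 and 103 RPKM in cKO. Alas2, the enzyme of the rate-limiting step of haem synthesis in red cells, measured 388, 455 and 379 RPKM in WT and 309.8, 193 and 250.5 RPKM in cKO. Abcb10, Slc25a38 and the transferrin receptor Tfrc fell (log2 -0.96, -0.78 and -0.73). In each of these genes cKO replicate 2 was the lowest library. The ferritin genes Ftl1 and Fth1, used by all cells, differed by -0.03 and -0.20, and Alad by -0.82 (adjusted p = 0.0902). The haem count was 0, 0, 0 and 0 without cKO replicate 3 and WT replicates 1, 2 and 3 in turn. It was 0 with no filter on low values and 3 under quantile scaling or with globin left out and the rest rescaled. Of the 15 tested red cell precursor markers 5 were lower (33.3%, against 3.89% of all genes) and 0 higher. Their count was 0 with no filter, with globin left out or with limma without trend, and 1 under quantile scaling. It was also 0 without cKO replicate 3 or any 1 of the WT replicates. None of the red cell genes named here passed with every library left out, with adjusted p up to 0.133.

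Of 46 DNA replication genes 20 were lower (43.5%, against 3.89% of all genes) and 0 higher. All 46 were below 0, and 42 did not overlap between genotypes with cKO lower (18.4% of all genes; median -0.60). Cdc6, which loads the replicative helicase, measured 15.8, 18.7 and 18.1 RPKM in WT and 10.2, 5.75 and 11.4 RPKM in cKO. Gmnn, the inhibitor of that loading, measured 42.8, 51.7 and 48.2 RPKM in WT and 29.9, 23 and 28.5 RPKM in cKO, -0.81 ± 0.13 on the log2 scale (SE, adjusted p = 0.0151). The primase Prim1 and the methylation maintenance factor Uhrf1 fell (log2 -0.79 and -0.76). The helicase subunits Mcm7, Mcm3 and Mcm2 differed by -0.62, -0.76 and -0.72 and did not pass (adjusted p = 0.0925, 0.0523 and 0.0537). Of 42 DNA repair genes 9 were lower (21.4%) and 0 higher. Fanci, Msh6 and Clspn fell (log2 -0.69, -0.69 and -0.66). Parp1 and Xrcc1 differed by -0.35 and -0.06 and did not pass. Of 33 genes of nucleotide synthesis 5 were lower (15.2%), among them Rrm2, the ribonucleotide reductase subunit, from 141 ± 6.47 to 85.9 ± 20.6 RPKM (SD, n = 3), Dck (-0.76), Tk1 (-0.64) and Dut (-0.56), and mitosis genes were lower in 15 of 55 (27.3%). The replication count was 0, 1, 1 and 3 without cKO replicate 3 and WT replicates 1, 2 and 3 in turn, and 6, 7 and 8 with no filter on low values, with globin left out and with limma without trend. The repair count was 5, 0, 0, 0 and 0 without cKO replicates 2 and 3 and WT replicates 1, 2 and 3 in turn, that of nucleotide synthesis 0, 0, 0 and 0 without cKO replicate 3 and WT replicates 1, 2 and 3 in turn and that of mitosis 30, 24, 2, 0, 1 and 3 without cKO replicates 1, 2 and 3 and WT replicates 1, 2 and 3 in turn. None of the falls named here passed with every library left out, with adjusted p up to 0.139. The erythroid and B cell marker sums were lower in cKO beside these groups (34834 to 45075 against 46977 to 53286 RPKM and 352 to 425 against 551 to 674 RPKM), and their part in the falls was not tested.

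Of 13 cyclins 1 was higher (7.69%, against 7.51% of all genes) and 2 lower (15.4%, against 3.89% of all genes). Ccnd1, the D-type cyclin, measured 8.77, 8.23 and 10.4 RPKM in WT and 18.4, 29.1 and 22.9 RPKM in cKO, a rise of 1.33 ± 0.18 (SE, adjusted p = 0.0117). Ccnd3, the D-type cyclin of blood cells, measured 240.5, 197 and 194 RPKM in WT and 156, 131 and 149.6 RPKM in cKO, and Ccne2 fell (log2 -0.74). The mitotic cyclins Ccna2 and Ccnb2 differed by -0.65 and -0.61 and did not pass (adjusted p = 0.0639 and 0.051). Cyclins lower numbered 4, 0, 0, 0 and 0 without cKO replicates 2 and 3 and WT replicates 1, 2 and 3 in turn, and 0 were higher without WT replicate 1. All 3 called cyclins lost the call in at least 1 fit with a library left out, with adjusted p up to 0.0979.

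Some gene groups that every cell uses were nearly free of calls. By limma, 0 of 34 tRNA synthetases, 0 of 42 subunits of respiratory complex I, 0 of 42 of complexes III to V, 0 of 56 translation initiation factors, 0 of 47 proteasome subunits and 0 of 25 citric acid cycle genes passed. Their medians lay between -0.23 and -0.08, below the median of -0.04 over all genes. At an unadjusted p under 0.05 there were, in the same order, 4, 7, 7, 6, 17 and 2, against 3862 of all 12641 genes. Genes without overlap between genotypes numbered 4, 9, 7, 11, 23 and 5 with cKO lower (18.4% of all genes). With cKO higher they numbered 1, 0, 2, 1, 0 and 0 (18.7% of all genes). With 1 library left out, 1 gene was called in complexes III to V without cKO replicate 1 or 2 and 1 initiation factor without cKO replicate 1. Of 81 ribosomal protein genes 2 were higher (2.47%, against 7.51% of all genes), Rpl39l (1.11) and Rps4y2 (0.97), both named after their values were seen and both close relatives of other ribosomal protein genes, between which reads could be split. Their number was 0, 1, 0, 0, 0 and 1 without cKO replicates 1, 2 and 3 and WT replicates 1, 2 and 3 in turn, 1 was lower without cKO replicate 1, and the median was -0.02. Of 62 splicing factors, 1 was higher (1.61%, against 7.51% of all genes) and 3 lower (4.84%, against 3.89% of all genes). In 28 the libraries did not overlap with cKO lower, and 24 had an unadjusted p under 0.05. The number lower was 8, 1, 0, 0, 0 and 0 with the same libraries left out in turn.

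The diaphysis libraries were used for comparison only. No gene passed there by limma (0 of 12540, with 81 at an unadjusted p under 0.05 among those tested in both regions), and 0 of 12321 genes measured in both tables differed between regions in the effect of genotype, with 495 at an unadjusted p under 0.05. The deleted gene Dlx3 did not pass there either, although its difference was -2.52 ± 0.50 (log2, SE) without overlap between genotypes. The counts of 0 therefore cannot show that genotype had no effect in the diaphysis, or the same effect in both regions. Without WT replicate 1 of the diaphysis, 241 genes differed between regions. Of 917 genes higher in the metaphysis and tested in both, 802 were above 0 in the diaphysis and 66 (7.2%) did not overlap there, against 2.26% of all genes. Of 491 lower genes, 319 were below 0 and 10 (2.04%) did not overlap, against 0.722%. In either direction 2.98% of all genes did not overlap there. The median diaphysis difference was 0.21 for the first set and -0.04 for the second. Dlx4 was 2.09 there, Vdr 1.57, Wnt10b 1.41, Fam20c 1.23 and Miat 1.63, and in each the 3 cKO libraries lay above the 3 WT libraries. Egr1 was 0.19, Ibsp 0.13, Trim10 -0.04 and Prg2 -0.19, with overlap. For these genes the difference between regions did not pass either (smallest adjusted p over the called genes 0.908).

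**Figure D5:**
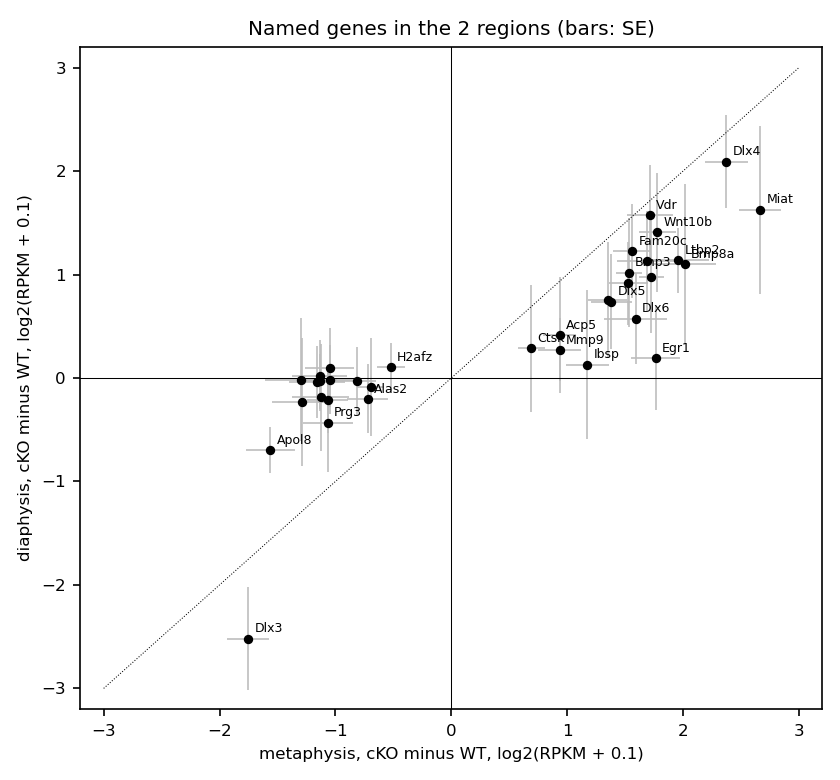
Difference between genotypes on the log2(RPKM + 0.1) scale of the genes named by size of change, metaphysis on the horizontal and diaphysis on the vertical axis, with SE bars and a dotted line of equal values. The genes drawn that rose in the metaphysis lie above 0 in the diaphysis, at smaller values and with wide bars; Matn1, at 0.132 (WT) and 0.101 RPKM (cKO) in the diaphysis, was not tested there and is not drawn. Of those that fell, most lie near 0 there apart from Dlx3 and Apol8.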

How the data were processed

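RNA from femur metaphysis was extracted with Trizol and made into libraries with a TruSeq RNA kit, per the labels' protocols, which does not mark strand, so overlapping antisense genes cannot be told apart. The authors deposited RPKM values per transcript. Tools listed without a role, per the submitters' processing notes, were Partek 6.6, Bowtie 0.12.7.0, TopHat 1.3.2 and CASAVA 1.8.2, and the build was mm9. Transcripts were summed per symbol (24456 transcripts, 18778 symbols), and symbols with an RPKM of 1 or more in 3 of the 6 libraries were tested with limma 3.58.1 in R 4.3.3 (trend, log2(RPKM + 0.1), Benjamini-Hochberg adjustment over 12641 genes, two-sided). Log2 differences, and the folds summarised over all called genes, are on that scale, which understates low genes. Folds given for single genes are ratios of mean RPKM. Of low values, 73.1% to 77.8% fell within 0.1 of whole reads at the depths worked out. Depth was chosen to raise this share, so the 20.0% of evenly spread values is not its chance level. Not all values fell on whole reads, and no count test was run. Differences between regions were fitted over 12 libraries. The scripts were tested on simulated data. Gene positions are from GENCODE vM1 (NCBIM37) and upstream sequence from RefSeq (GRCm38.p6). The members and gene lists were chosen with earlier results of these data known.

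Genes named are Dlx3 and its family, the 12 per direction with the largest log2 change among called, non-overlapping genes with a mean of 5 RPKM or more, the 5 per direction with the largest change in RPKM, both without symbols such as Rik models, and from each group described up to 4 called and 3 uncalled members; a few genes that this rule names are not reported here. Groups were compared as labelled, with 3 libraries each. Alternatives changed the pseudocount, filter, scaling, limma settings, transcript choice and libraries.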

Additional observations from a re-analysis of the deposited data

How the results depend on the processing

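No paired analysis was possible because the labels give no replicate numbers and no shared animal, litter or day across genotypes. Counts of genes higher and lower stayed within 1.5 times of 949 and 492 under both other pseudocounts, both other filters, equal medians, quantile scaling, limma without trend, robust limma and the highest transcript per symbol. They were 599 and 190 with no filter on low values. Of the main calls, 1 reversed with the highest transcript per symbol and 0 under the other settings. With globin left out and the rest rescaled, 299 genes were lower, and 74.6% of calls were rises against 65.9%. With the spread shared over 12 libraries, 5 were higher and 2 lower, and Dlx3 kept its difference of -1.75 but did not pass (adjusted p = 0.21); the cause was not tested. Leaving out 1 library gave 131 to 788 higher and 20 to 636 lower, lowest for rises without cKO replicate 3 and for falls without WT replicate 1. Dlx3 ran from -1.90 to -1.56 over these fits and passed in each. The count of genes differing between regions was 0 with each library left out except WT replicate 1 of the diaphysis, without which it was 241. Of the genes named as not past the threshold, 12 differences (log2) changed sign, and their lowest and highest values with 1 library left out were Adam10 -0.021 to 0.093, Adam17 -0.073 to 0.027, Alox5ap -0.317 to 0.016, Cdh13 -0.462 to 0.029, Foxo3 -0.186 to 0.165, Ftl1 -0.066 to 0.012, Hsp90b1 -0.028 to 0.109, Insr -0.176 to 0, Itgb2 -0.31 to 0.031, Itgb3 -0.166 to 0.09, Xrcc1 -0.162 to 0.049. Under other settings the changed values were, under scaling to equal medians, Itgb3 0.01, and under quantile normalization, Adam17 0.007, Ftl1 0.111 and Itgb3 0.06, and under globin left out and rescaled, Itgb3 0.003, and under highest transcript per symbol, Vegfb 0.076.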
